A study of Homo sapiens with 6 samples.

Results

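The genes described here are published substrates of regulated IRE1-dependent decay, the process in which the RNase of IRE1 cuts messenger RNAs other than XBP1. The set holds 8 genes, BLOC1S1, SPARC, SCARA3, PMP22, HGSNAT, PDK2, TGOLN2 and GALNT10. They were chosen by symbol from what has been reported of them in other work, with earlier results of these arrays known. A probe set was taken as belonging to a gene where the platform annotation gives it that single symbol, which found 13 probe sets for 7 of the 8 genes, among 22277 probe sets and 11963 named genes on the array. No probe set was listed under PMP22, a tetraspan myelin membrane protein, so it has no value here.

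RNA came from U87 cells, an established human glioblastoma cell line, grown for 16 h in DMEM with FBS and glutamine. The IRE1dn group (3 arrays) carried a transgene for a dominant negative IRE1alpha, labelled as the single clone IRE1.NCK DN. The ctrl group (3 arrays) carried the empty plasmid and is labelled with clones in the plural, with no clone assigned to an array. The comparison serves a search for genes tied to tumour invasion and blood vessel growth. Transgene and clone cannot be told apart in this design, and the labels name no agent that induces endoplasmic reticulum (ER) stress in either group. The labels do not state whether the replicates of a group are separate cultures. The p-values here therefore reflect only how these arrays scatter, and that scatter may be technical.

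IRE1, encoded by ERN1, is a transmembrane sensor of the ER with a kinase and an RNase on its cytosolic side. Unfolded proteins make it cluster, and its RNase then removes an intron from the XBP1 transcript, which yields an active transcription factor. The same RNase also cuts a set of other transcripts, often at a CUGCAG sequence within a hairpin loop. The fragments are then degraded from their new ends by the exonuclease XRN1 and the exosome. Most reported substrates encode secreted or membrane proteins, whose transcripts are translated at the ER. BLOC1S1, which encodes a protein outside the secretory pathway, is nevertheless the substrate most widely used to read out this decay. SPARC has been described as a substrate in U87 cells with this kind of transgene, so its direction here is not independent evidence.

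Of the 7 measured genes, 4 were higher and 2 lower in IRE1dn cells. GALNT10 (log2 change 1.66), HGSNAT (1.09), SPARC (1.09) and TGOLN2 (0.65) rose, SCARA3 (-1.40) and BLOC1S1 (-0.62) fell, and PDK2 did not pass. The test was limma over 7178 genes with an adjusted p threshold of 0.05, using for each gene its brightest probe set. Past that threshold lay 85.7% of the 7 substrate genes against 34.4% of all genes tested. Higher calls made up 57.1% of the substrates against 17.9% of all genes, and lower calls 28.6% against 16.5%. The median log2 change of the 7 was 0.65, and that of all genes tested was 0.01. These shares rest on 7 genes and carry no test. Without ctrl array 1, IRE1dn array 2 or IRE1dn array 3, the lower count was 1 in place of 2. Without IRE1dn array 1 it stayed at 2, with PDK2 called and BLOC1S1 not. The higher count was 3 in place of 4 without any single array except ctrl array 3.

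**Figure D1:**
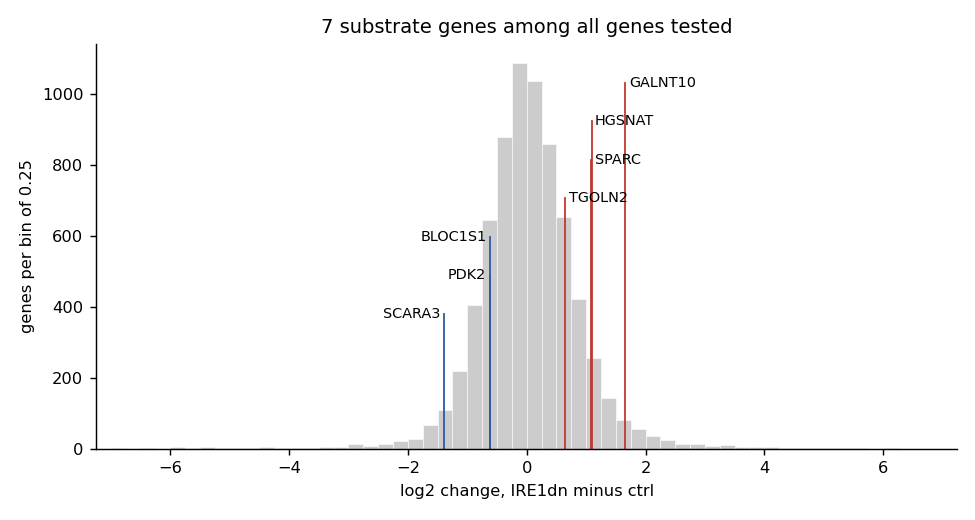
Grey bars count the 7178 genes tested in bins of 0.25 by log2 change (IRE1dn minus ctrl, horizontal axis), and vertical lines mark the 7 substrate genes at arbitrary heights, red for higher, blue for lower and grey for not past the threshold. GALNT10 lies farthest to the right of the 7 at 1.66 and SCARA3 farthest to the left at -1.40; the PDK2 line is hidden by that of BLOC1S1, both being at -0.62.

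Each of the 78 values (13 probe sets on 6 arrays) lay above 13.0 scaled units, the filter level used for the gene test, and they ran from 17.0 to 1858. That level is a percentile of all genes, not a measure of background. No gene therefore entered the test through 1 group alone. A fit over all 22215 probe sets without a filter served to give every probe set a value. There 7 of the 13 were higher, 1 lower and 5 did not pass, against a background of 15.2% of probe sets called, 8.15% higher and 7.05% lower. That background includes many dim probe sets. Among the 12069 probe sets with a mean above 13.0, 31.2% were called, 17% higher and 14.2% lower, and of the substrates' 13, 9 were higher, 2 lower and 2 did not pass. The groups did not overlap for 12 of the 13, where 33.5% of all probe sets and 47.6% of those above 13.0 did the same. In 9 of them IRE1dn lay above ctrl (18.4% of all, 25.7% of those above 13.0) and in 3 below (15.2% and 21.9%). For the 7 probe sets that stood for genes, 4 lay above and 3 below, and of all genes tested 50.2% had groups that did not overlap, 26% above and 24.2% below.

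**Figure D2:**
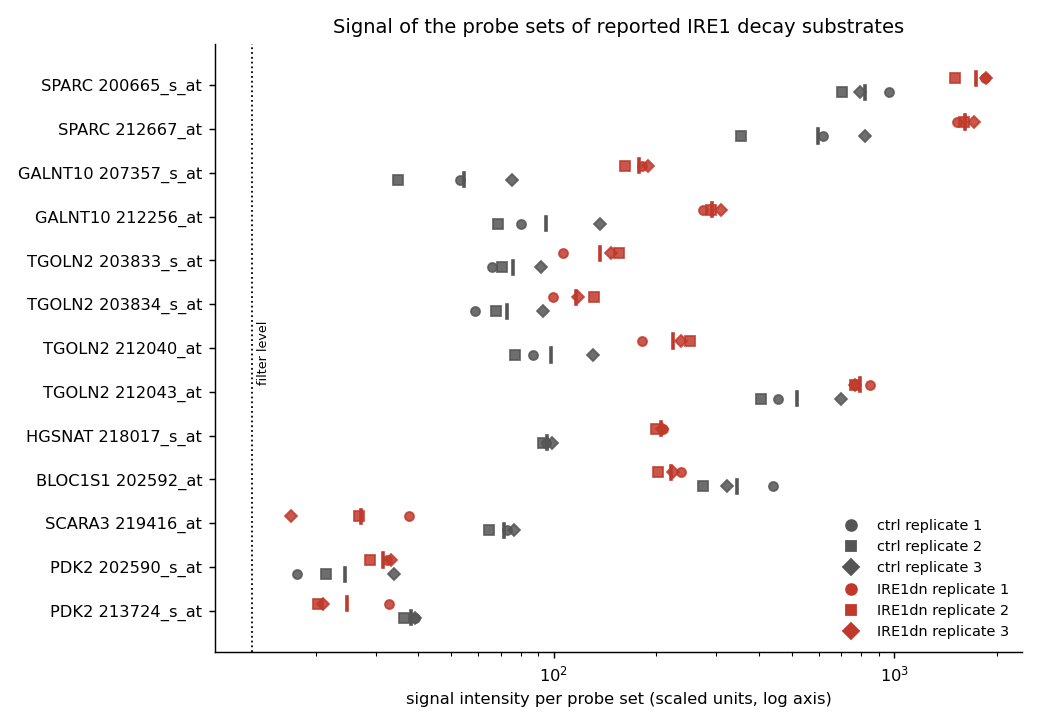
Each symbol is 1 array, the horizontal axis is the scaled signal intensity of a probe set on a log scale, vertical ticks are group means, and the dotted line is the filter level of 13.0. In 9 probe sets every IRE1dn array lies above every ctrl array, in 3 it lies below, and in PDK2 202590_s_at the groups overlap.

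SPARC encodes a secreted, collagen-binding matricellular glycoprotein that loosens cell adhesion to the matrix. Its probe set 200665_s_at read 969, 705 and 793 units on ctrl arrays 1 to 3 and 1845, 1514 and 1858 units on IRE1dn arrays 1 to 3. All IRE1dn arrays lay above all ctrl arrays. Means were 822 ± 134 (SD, n = 3) and 1739 ± 195 units (SD, n = 3), which is 1.09 on the log2 scale (SE 0.16) with a limma adjusted p of 0.00131 over genes. The second probe set, 212667_at, read 618, 356 and 822 units in ctrl and 1531, 1604 and 1719 units in IRE1dn cells. It changed by 1.51 (SE 0.27; limma adjusted p = 0.00643 over all probe sets), with a ctrl spread of 234 units around 598 against 94.6 units around 1618 in IRE1dn cells. Both probe sets thus place the transcript higher in IRE1dn cells, and their 95% intervals, 0.70 to 1.47 and 0.91 to 2.12, overlap.

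GALNT10 is a Golgi enzyme that attaches N-acetylgalactosamine to serine and threonine, with a preference for peptides already glycosylated. Probe set 212256_at read 80.2, 68.6 and 137 units on ctrl arrays 1 to 3 and 275, 289 and 311 units on IRE1dn arrays 1 to 3. No ctrl array reached the lowest IRE1dn array. The gene rose by 1.66 (SE 0.25; limma adjusted p = 0.00131), from 95.2 ± 36.5 to 292 ± 18.3 units (SD, n = 3 each), the largest rise among the 7. Probe set 207357_s_at gave 53.0, 35.0 and 75.6 units in ctrl and 182, 162 and 189 units in IRE1dn cells. They differed by 1.74 on the log2 scale (SE 0.26), with a limma adjusted p of 0.00300 over all probe sets. Both probe sets had their highest ctrl value on array 3 and their lowest on array 2. Without ctrl array 3 the change of GALNT10 was 1.95, and without ctrl array 2 it was 1.46.

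TGOLN2, also called TGN46, is a single-pass membrane protein that cycles between the trans-Golgi network and the cell surface and is widely used to mark that compartment. Its brightest probe set, 212043_at, read 456, 407 and 697 units on ctrl arrays 1 to 3 and 849, 766 and 767 units on IRE1dn arrays 1 to 3. The groups did not overlap, though ctrl array 3 lay nearer to the lowest IRE1dn array than to the other ctrl arrays. Means were 520 ± 155 and 794 ± 47.7 units (SD, n = 3 each). TGOLN2 rose by 0.65 on the log2 scale (SE 0.20), with a limma adjusted p of 0.0345 over genes. The call ended without any single array except ctrl array 3, with limma adjusted p-values of 0.0859 to 0.104, and the change was 0.88 without ctrl array 3.

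The other 3 TGOLN2 probe sets were also higher on every IRE1dn array. Probe set 212040_at read 86.9, 76.9 and 131 units in ctrl and 182, 251 and 237 units in IRE1dn cells, or 1.20 more on the log2 scale (SE 0.23), with a limma adjusted p of 0.00848 over all probe sets. Probe set 203833_s_at read 65.8, 70.4 and 92.0 units in ctrl and 107, 156 and 148 units in IRE1dn cells, a change of 0.83 (SE 0.21; 0.0309). Probe set 203834_s_at read 59.0, 67.7 and 92.8 units in ctrl and 99.9, 131 and 118 units in IRE1dn cells, a change of 0.68 (SE 0.22) that did not pass (0.0670), as 212043_at did not in that fit (0.0648). The 4 therefore shared a direction with changes from 0.65 to 1.20, and 2 of them passed over all probe sets. Leaving out IRE1dn array 2 or 3 ended the calls of 212040_at (0.0534 and 0.0515) and 203833_s_at (0.145 and 0.128). The call of 203833_s_at also ended without ctrl array 1 (0.0742) or 2 (0.0749).

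Promoters are shown for SPARC, GALNT10 and TGOLN2, the rising substrates with a promoter entry used here. The reason is that XBP1 and ATF6 act through short elements near transcription starts, while decay by IRE1 acts on the transcript. The transcripts themselves were not analysed here. Promoter entries (GRCh38.p14), matched by symbol, were used for 6 of the 8 genes. HGSNAT and SCARA3 were left out of this step, so nothing is said here of their promoters. The windows are the 250 bases before the start of SPARC (chr5:151686916-151687165, minus strand), GALNT10 (chr5:154190483-154190732, plus strand) and TGOLN2 (chr2:85327990-85328239, minus strand), written 5′ to 3′. Capitals mark matches on either strand to CCACG, the 3′ part of the ER stress element.
SPARC: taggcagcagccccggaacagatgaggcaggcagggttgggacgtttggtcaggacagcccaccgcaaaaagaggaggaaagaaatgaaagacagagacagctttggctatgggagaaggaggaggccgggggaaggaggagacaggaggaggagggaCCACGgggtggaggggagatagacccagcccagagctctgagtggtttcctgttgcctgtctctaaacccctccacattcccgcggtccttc
GALNT10: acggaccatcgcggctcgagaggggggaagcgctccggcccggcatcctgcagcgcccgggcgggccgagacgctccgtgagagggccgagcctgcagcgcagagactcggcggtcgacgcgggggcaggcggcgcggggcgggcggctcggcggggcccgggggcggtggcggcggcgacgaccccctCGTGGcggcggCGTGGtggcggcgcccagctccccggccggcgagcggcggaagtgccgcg
TGOLN2: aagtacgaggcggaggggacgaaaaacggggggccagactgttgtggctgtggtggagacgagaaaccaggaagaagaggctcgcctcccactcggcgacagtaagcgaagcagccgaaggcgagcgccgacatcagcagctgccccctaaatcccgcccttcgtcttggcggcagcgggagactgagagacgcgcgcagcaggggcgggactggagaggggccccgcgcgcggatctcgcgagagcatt
CCACG, read on both strands, occurred once upstream of SPARC, at 2 places upstream of GALNT10 and not upstream of TGOLN2, where 33.5% of 35116 RefSeq promoters of this length hold it. The full element, CCAAT and CCACG with any 9 bases between them, is found in 0.0740% of promoters and contains both shorter motifs. It matched none of the 3, nor did the XBP1-type core TGACGTG (1.68% of promoters). CCAAT (32.0% of promoters) and the AP-1 site TGANTCA (6.57%) had no match there either. Among the genes that did not rise, both BLOC1S1 entries held 1 CCAAT, and of 3 PDK2 entries 1 held 3 CCAAT and 2 CCACG matches and the others none of the 5 motifs. Of 3 PMP22 entries, 1 held a CCAAT. A match is a description of the letters, not a site of binding.

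HGSNAT is a lysosomal membrane enzyme that acetylates the terminal glucosamine of heparan sulfate so that its breakdown can go on. Its single probe set, 218017_s_at, read 95.2, 93.0 and 99.2 units on ctrl arrays 1 to 3 and 210.2, 199 and 209 units on IRE1dn arrays 1 to 3. These were the tightest groups of all 13 probe sets, with a coefficient of variation of 3.29% in ctrl and 2.84% in IRE1dn cells, and they lay well apart. HGSNAT rose from 95.8 ± 3.15 to 206 ± 5.86 units (SD, n = 3 each), or by 1.09 on the log2 scale (SE 0.16), with a limma adjusted p of 0.00124. With any array left out the change stayed between 1.07 and 1.12.

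SCARA3 encodes a class A scavenger receptor-like membrane protein that is induced by oxidative stress. Unlike the genes above, it was lower in IRE1dn cells. Its probe set 219416_at read 73.1, 64.8 and 76.3 units on ctrl arrays 1 to 3 and 37.7, 26.9 and 17.0 units on IRE1dn arrays 1 to 3. All IRE1dn arrays lay below all ctrl arrays, and here the IRE1dn arrays were the more scattered, with a coefficient of variation of 38.1% against 8.33%. The ctrl mean of 71.4 ± 5.95 units was 2.62 times the IRE1dn mean of 27.2 ± 10.4 units (SD, n = 3 each). SCARA3 thus changed by -1.40 on the log2 scale (SE 0.28), with a limma adjusted p of 0.00515. The change was -1.12 without IRE1dn array 3, -1.65 without IRE1dn array 1 and -1.04 with a pseudocount of 16. The 17.0 units on IRE1dn array 3 were the lowest of the 78 substrate values. In the fit over all probe sets the call of SCARA3 (limma adjusted p = 0.0130) ended without IRE1dn array 2 (0.0537).

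BLOC1S1 is a subunit shared by BLOC-1, which helps to form lysosome-related organelles, and BORC, which positions lysosomes. Its only probe set, 202592_at, read 441, 274 and 323 units on ctrl arrays 1 to 3 and 237, 202 and 225 units on IRE1dn arrays 1 to 3. Every IRE1dn array lay below every ctrl array, and ctrl array 1 was the highest. Mean signal was 346 ± 86.2 units in ctrl and 221 ± 17.8 units in IRE1dn cells (SD, n = 3 each). BLOC1S1 changed by -0.62 on the log2 scale (SE 0.20; 95% interval -1.06 to -0.17), with a limma adjusted p of 0.039 over genes. The call was marginal. It did not pass over all probe sets (0.0621), and over genes it ended without ctrl array 1 (-0.43; 0.0742) and without IRE1dn arrays 1, 2 or 3 (0.0741, 0.146 and 0.107).

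PDK2 is a mitochondrial kinase that phosphorylates and so inhibits pyruvate dehydrogenase. Its 2 probe sets went in opposite directions. Probe set 213724_s_at read 39.2, 36.4 and 39.1 units on ctrl arrays 1 to 3 and 33.0, 20.3 and 21.1 units on IRE1dn arrays 1 to 3, all of the latter lower. Its log2 change was -0.62 (SE 0.25; 95% interval -1.18 to -0.06; limma adjusted p = 0.0791 over genes), which did not pass. Probe set 202590_s_at read 17.6, 21.5 and 34.0 units in ctrl and 32.3, 28.9 and 33.2 units in IRE1dn cells, and ctrl array 3 was the highest of all 6. Its log2 change was 0.39 (SE 0.30; 95% interval -0.29 to 1.08; limma adjusted p = 0.451 over all probe sets). The value given for PDK2 as a gene depends on which probe set is brightest: without ctrl array 1 the choice moved to 202590_s_at and the change was 0.20, and the mean of both probe sets changed by -0.11. Without IRE1dn array 1 the change was -0.83 and passed (0.0459). No direction is given for PDK2.

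**Figure D3:**
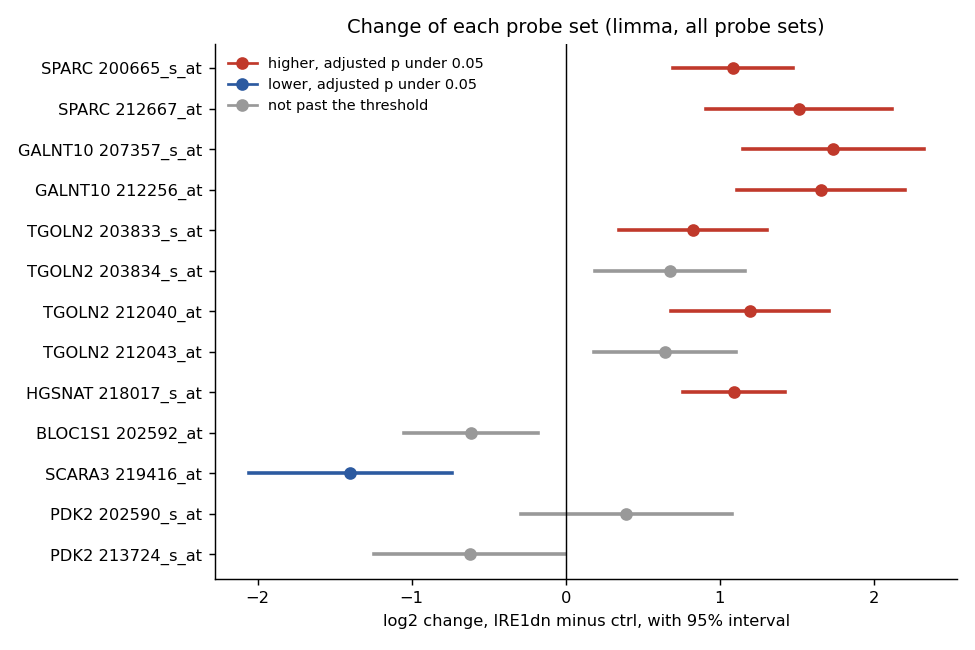
Points are log2 changes (IRE1dn minus ctrl) of the 13 probe sets from the limma fit over all 22215 probe sets, and bars are 95% intervals. The 9 probe sets of SPARC, GALNT10, TGOLN2 and HGSNAT lie right of 0, those of BLOC1S1 and SCARA3 lie left of it, and the 2 of PDK2 lie on either side.

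Within the ctrl group, 10 of the 13 probe sets were highest on array 3 and 10 were lowest on array 2. Of all genes tested, 34.1% were highest on ctrl array 3 and 26.4% lowest on ctrl array 2, but the 13 probe sets stand for only 7 genes. For 212667_at of SPARC these arrays lay 0.54 above and 0.67 below the ctrl mean on the log2 scale, and for 212256_at of GALNT10 0.58 above and 0.40 below. BLOC1S1, SPARC 200665_s_at and PDK2 213724_s_at were highest on ctrl array 1, at 0.38, 0.25 and 0.04, and also lowest on ctrl array 2. The median SD of the 13 probe sets was 0.35 in ctrl and 0.12 in IRE1dn cells on the log2 scale, where all genes tested had 0.29 and 0.17, and 10 of the 13 varied more in ctrl. Whether the ctrl arrays hold different clones was not tested.

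**Figure D4:**
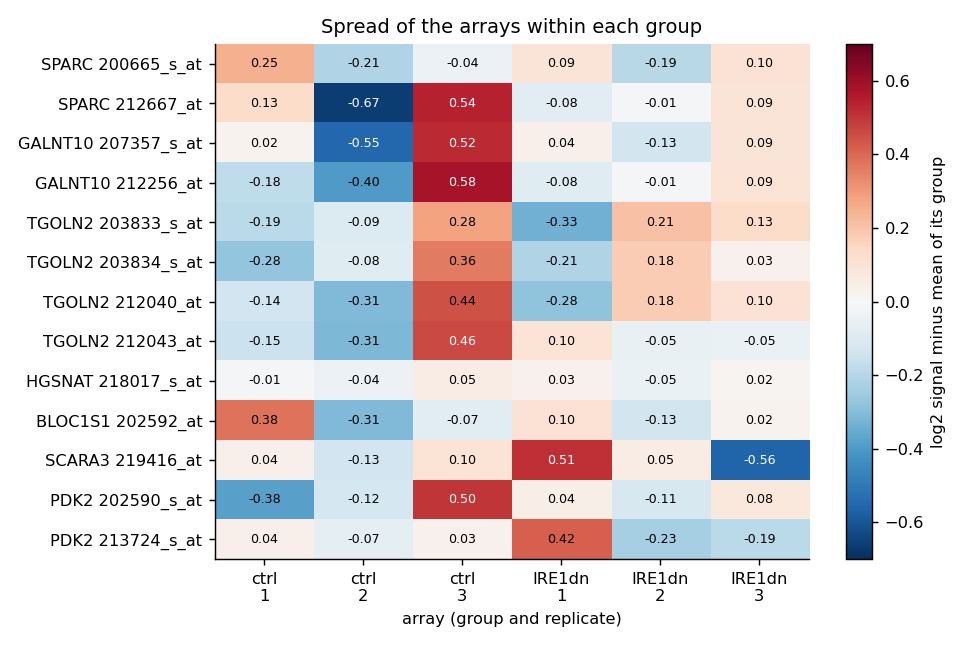
Each cell gives the log2 signal of a probe set on 1 array minus the mean of its group, red above and blue below. Among the ctrl arrays, array 3 is the highest for 10 of the 13 probe sets and array 2 the lowest for 10, while HGSNAT deviates by at most 0.05 on any array.

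**Figure D5:**
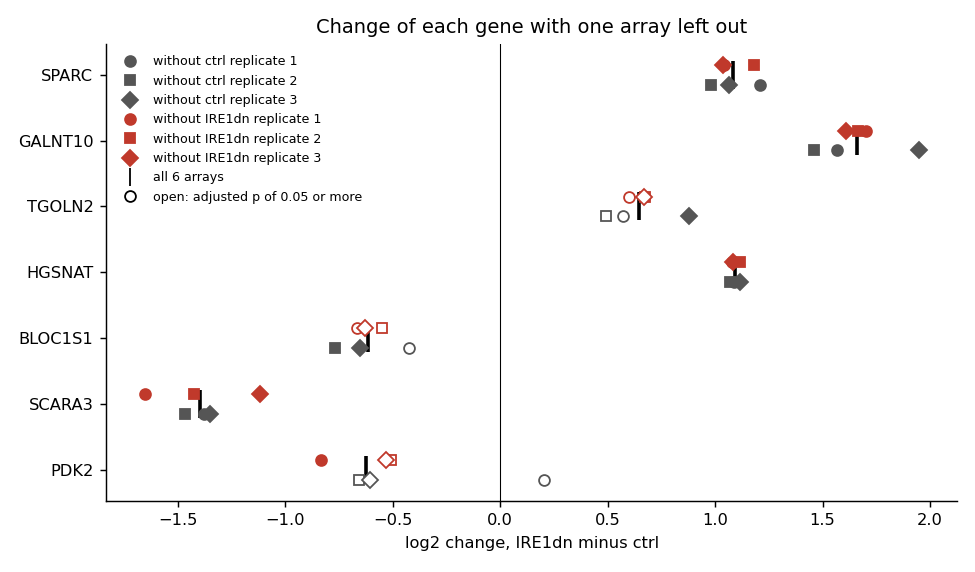
Symbols give the log2 change of each gene (horizontal axis, IRE1dn minus ctrl) with 1 array left out, black ticks the change with all 6 arrays, and open symbols an adjusted p of 0.05 or more. SPARC, GALNT10, HGSNAT and SCARA3 have closed symbols throughout, TGOLN2 and BLOC1S1 have mostly open ones, and PDK2 turns to 0.20 without ctrl array 1.

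The sensor and its machinery give the setting for these values. ERN1 read 12.3 ± 1.53 and 11.1 ± 1.58 units (SD, n = 3 each; ctrl, then IRE1dn, as in all pairs below), under the filter level of 13.0. Its probe set need not lie in the transgene, so it checks no label. XBP1, the spliced target, fell by 0.90 on the log2 scale (SE 0.18; limma adjusted p = 0.00448), measured as total transcript and not as its splicing. Over all 7178 genes tested, 17.9% rose and 16.5% fell, shares to set beside this list and those below. At an unadjusted limma p under 0.05, 1720 of the 7178 rose and 1584 fell. The median of 13 tested genes for IRE1 and its regulators was -0.02, and 3 of them fell and 0 rose. At an unadjusted limma p under 0.05, 3 fell and 1 rose, and 1 rose past the threshold without ctrl array 2. Besides XBP1, the genes that fell were DNAJB9, a co-chaperone that holds IRE1 inactive (-1.32), and BAX, a pro-apoptotic protein (-1.34).

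Genes for the decay of cut RNA and the ligation of XBP1 had a median log2 change of -0.33. Of all genes tested, 16.5% fell and 17.9% rose. At an unadjusted limma p under 0.05, 7 of the 16 genes in this list fell and 0 rose. Past the threshold, 6 of the 16 fell and 0 rose. The exosome subunits EXOSC4 (-1.16), EXOSC8 (-1.11) and EXOSC7 (-0.96) were among them, as was SKIC8, a subunit of the Ski complex that feeds RNA to the exosome (-0.82). The SKIC8 call ended when any 1 IRE1dn array was left out, with limma adjusted p-values of 0.0532 to 0.0657, and its change was -0.39 with its probe sets averaged. Without probe sets of the _s_at and _x_at types, SKIC8 changed by -1.27 and 3 of the list fell. EXOSC7 then changed by -0.66 and did not pass (limma adjusted p = 0.0909). XRN1, the exonuclease that acts from the other end, had no listed probe set in the annotation used here. Any part of these levels in the substrates' values was not tested.

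Other transcripts reported elsewhere as decay substrates also went both ways. Of 13 listed genes 6 were tested, and 3 rose and 1 fell, with a median of 0.63. Among all genes tested, 17.9% rose and 16.5% fell. COL6A1, a chain of collagen VI, rose from 668 ± 144 to 1526 ± 86.4 units (SD, n = 3 each; log2 change 1.21, SE 0.18; limma adjusted p = 0.00119). The growth factor receptor PDGFRB changed by 1.15 (SE 0.28; limma adjusted p = 0.0117, and 0.0506 without IRE1dn array 3; 0.73 with a pseudocount of 16), and TAPBP, tapasin of the peptide loading complex, by 0.88. The change of TAPBP was 0.40 and did not pass when its probe sets were averaged. TNFRSF10B, the death receptor DR5, fell by 1.01 (SE 0.17; limma adjusted p = 0.00253).

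Relatives and partners of the substrates were compared only as counts, with their medians. These are to be set beside all genes tested, with 17.9% higher, 16.5% lower and a median of 0.01. The 2 tested SPARC relatives both rose, the proteoglycan SPOCK1 by 2.30 and the secreted glycoprotein FSTL1 by 1.67. Of 5 tested GalNAc transferases other than GALNT10, 1 rose, GALNT11 (0.68), and 1 fell, GALNT12 (-2.44), with a median of -0.27. The GALNT11 call ended without any single array except ctrl array 3, with limma adjusted p-values of 0.0577 to 0.112, and with the replicate number as a block (0.0518). A second transferase fell without ctrl array 1.

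Trans-Golgi network genes other than TGOLN2 had a median of -0.35, with 1 of 16 higher and 3 lower. The clathrin adaptor subunit AP1S1 changed by -2.13, the fusion protein VAMP4 by -0.78, the mannose 6-phosphate receptor M6PR by -0.69 and the fusion protein STX6 by 0.60. The calls of VAMP4, M6PR and STX6 each ended under 3 or more of the 6 single left-out arrays, that of AP1S1 under none. With probe sets averaged VAMP4 changed by -1.34 and STX6 by 0.28, the latter not passing. The lower count was 1 without IRE1dn array 3 and 5 without ctrl array 1. Among 6 tested lysosomal enzymes of heparan sulfate breakdown, the pathway of HGSNAT, 2 rose and 0 fell (2 and 0 at an unadjusted limma p under 0.05), with a median of 0.07. They were IDUA (0.95; 0.61 with a pseudocount of 16) and GUSB (0.71). Without IRE1dn array 3 the count was 0, and without any other array except ctrl array 3 it was 1.

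For PDK2 the related list is the pyruvate dehydrogenase complex with its kinases and phosphatases, in which 2 of 8 rose and 3 fell, with a median of -0.50. The sister kinases PDK3 and PDK1 rose by 1.55 and 1.51, and the complex subunits DLAT and DLD fell by 0.87 and 0.75. The change of PDK3 was 0.92 with its probe sets averaged, and the lower count was 5 with equal medians or the 60th percentile filter, which left 1 higher. Of 12 BLOC-1 and BORC partners of BLOC1S1 only 2 were tested, BORCS8 (-0.45) and KXD1 (-0.46), and neither passed (1 lower at an unadjusted limma p under 0.05). With quantile normalization, equal medians or array weights, 1 of them was called lower. The PMP22 relatives EMP1 (-0.96), EMP3 (-0.89) and PERP (-0.87) fell and TMEM47 (1.82) rose among 5 tested, of which 2 rose and 3 fell in all. The lower count was 1 without IRE1dn array 2 or 3, and the higher count was 1 without ctrl array 2 or any IRE1dn array. None of the 3 other class A scavenger receptors with a listed probe set passed the filter, so SCARA3 has no tested relative.

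Genes with the most similar profile were found by Pearson correlation of log2 signal over the 6 arrays, as a description. The nearest gene was ZNF692 for SPARC (r = 0.996), RGS4 for GALNT10 (0.9998), PLOD1 for TGOLN2 (0.998), PPP2R3A for HGSNAT (0.999), APOBEC3C for BLOC1S1 (0.996), AKIP1 for SCARA3 (0.999) and MARCHF7 for PDK2 (0.991). With 6 arrays in 2 groups such values are common: 406 genes exceeded 0.95 for HGSNAT and 40 for PDK2.

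Arrays and cells were checked as a whole. Array medians ran from 18.4 to 21.0 units, correlations of log2 signals over all probe sets that are not controls were 0.959 to 0.967 within ctrl, 0.974 to 0.979 within IRE1dn and 0.930 to 0.951 between groups, and the ratio of 3′ to 5′ GAPDH signal was 0.869 to 0.923 and 0.895 to 0.940. The 3′ to 5′ ratio of ACTB was 1.16 to 1.21 in ctrl and 1.09 to 1.64 in IRE1dn cells. Of 9 glioma markers, VIM (2787 ± 178 and 3825 ± 1152 units, SD, n = 3 each) and CD44 (1663 ± 24.9 and 1669 ± 200.4) were bright, while GFAP, S100B and SOX2 lay under 13.0 in both groups. Of the 5 tested, 2 rose, CHI3L1 by 1.63 (limma adjusted p = 0.00988) and EGFR by 0.87 (0.0132). These 2 markers of the line thus differed between the groups, while VIM, NES and CD44 did not pass. OLIG2, below the filter, read 16.4 ± 7.93 and 3.42 ± 1.06 units (SD, n = 3 each), with a limma adjusted p of 0.0194 over genes without a filter. Summed signals of other cell types' markers were low for 7 endothelial (30.2 to 39.3 units in ctrl, 22.0 to 28.1 in IRE1dn), 6 leukocyte (28.5 to 57.6 and 68.1 to 73.0, most of it CSF1R) and 3 oligodendrocyte genes (13.7 to 16.3 and 6.56 to 14.8). The 4 neuronal genes summed to 135 to 273 and 247 to 304 units, most of it SNAP25. PTPRC, which marks leukocytes, read 3.36 and 2.53 units on average, and PECAM1, which marks endothelium, 12.1 and 4.51. The part of these markers in the substrates' values was not tested.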

How the data were processed

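Total RNA of 6 samples was hybridised to Affymetrix arrays, 1 array per sample. The authors deposited 1 linear intensity for each probe set and array. GCOS 1.2 is the tool listed in the submitters' processing notes; the summarisation method is not given in the sources used here. As the values show, each array had been scaled to a mean of 100.03 after trimming 2% at each end, so a change shared by all transcripts is not visible. Intensities were used as log2(signal + 1.75), where 1.75 is the 20th percentile of all values, which makes changes of dim genes smaller. The annotation gave a single symbol to 19064 of the 22277 probe sets and more than 1 to 1043, and 62 were controls. Of the probe sets with a single symbol, 19052 matched a GRCh38.p14 RefSeq gene by identifier. Each gene was represented by its brightest probe set (mean log2 signal). Genes whose mean exceeded the 40th percentile (13.0 units), 7178 in number, were tested with limma 3.58.1 in R 4.3.3 (lmFit, eBayes with an intensity trend, two-sided, Benjamini-Hochberg adjustment, threshold 0.05). All 22215 probe sets that are not controls were fitted in the same way without the filter. Fold changes are IRE1dn minus ctrl on the log2(signal + 1.75) scale, and SE, SD and n refer to 3 arrays per group. The number of arrays limits the precision. The test was checked on simulated data. Members and lists were chosen with earlier results of these data known. Named genes are the 8 members, ERN1, XBP1, up to 4 changed genes of each list with the largest changes, and the most correlated gene of each member; BORCS8, KXD1, XRN1 and the marker genes named were singled out after their values were seen. The alternatives varied the pseudocount, the filter, the scaling, the choice of probe set and the variance model, added a replicate block, or left out arrays.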

Additional observations from a re-analysis of the deposited data

How the results depend on the processing

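SPARC, GALNT10, HGSNAT and SCARA3 kept their direction and stayed past the threshold over genes under every alternative that tested them, with log2 changes of 0.93 to 1.51, 1.41 to 1.95, 0.99 to 1.12 and -1.65 to -1.04. TGOLN2 (0.49 to 0.88) and BLOC1S1 (-0.78 to -0.43) kept their direction and passed in 10 and 11 of 18 alternatives. PDK2 turned to 0.20 without ctrl replicate 1, and its call was made with quantile normalization (-0.70), with array weights (-0.72) and without IRE1dn replicate 1 (-0.83). With each array left out in turn, 739 to 1416 genes were higher and 707 to 1255 lower, 3 to 4 substrate genes were higher and 1 to 2 lower, and 5 to 9 substrate probe sets were higher and 0 to 2 lower. Of the substrate genes, 1 was lower with no filter, 1 with the 60th percentile filter, which left out SCARA3 and PDK2, and 1 without an intensity trend. Of the probe sets, 2 were lower with equal medians, with array weights and with the signal filter. Without probe sets of the _s_at and _x_at types 836 genes were higher and 729 lower. Without ctrl array 2 and IRE1dn array 3 together, an alternative added after seeing the data, 638 genes were higher and 542 lower, 1 substrate gene was lower, and 3 substrate probe sets were higher and 0 lower. With the replicate number as a block, 1178 genes were higher and 1098 lower, and the substrate counts were 4 and 2. Arrays with the same number did not deviate together (correlations of -0.10, 0.06 and 0.02), so the numbers were not taken as pairs. The cause of each shift was not tested. Dim probe sets such as those of PDK2 and SCARA3 are limited by background, which was not measured here.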
